A study of Mus musculus with 3 samples.

Results

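The serpins of the array design were taken as every gene whose symbol has the form Serpin, a clade letter from a to i, and a number. These were 59 genes of the 20284 that could be named, and 38 of them were measured on all 3 arrays, beside 13626 genes measured in all. Each array held Cy3-labelled RNA from c57BL6/J mouse liver expressing human YAP, the coactivator restrained by the Hippo pathway. One array carried wild-type YAP (WT), one the active mutant 1SA and one the active mutant 2SA, and the labels give all 3 livers a time of 2 days. Per the study's methods, plasmids were delivered into 8-week-old male mice by hydrodynamic tail vein injection, and the pLIVE vector restricts transcription to hepatocytes through an enhancer of mouse Afp and the albumin promoter. All 3 livers, the WT control included, therefore shared the injection and the vector, and such delivery reaches a fraction of the hepatocytes, so each RNA came from a mosaic of transfected and untransfected cells. The WT sample is numbered 2 in its title, and whether animals were pooled is not given by the labels. Since each group was a single array, replicate error could not be estimated and no test was run.

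Serpins share a fold in which an exposed reactive centre loop is offered to a protease as bait. On cleavage the loop inserts into the body of the serpin and the protease is trapped in a covalent complex that receptors of the LDL receptor family clear. Hepatocytes secrete many of the plasma serpins, among them antithrombin and alpha-1-antitrypsin, whereas most clade B serpins stay inside cells and protect them from granule and lysosomal proteases. A few members inhibit no protease, and serve as hormone carriers or, in the case of Hsp47 (Serpinh1), as a chaperone of collagen.

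The sequence shown first is that upstream of the genes on which the results turn. The promoters (250 bases before to 50 bases after the start of the gene, 300 bases in all, RefSeq, build GRCm38.p6) of Serpina12 (chr12:104044394-104044693, minus strand) and Serpina5 (chr12:104100863-104101162, plus strand) are printed because these were the serpins measured on all 3 arrays that were at least 2-fold from WT. Those of Serpinb6a (the first of 2 starts, chr13:34002745-34003044, minus strand), Serpinb6b (chr13:32965011-32965310, plus strand) and Serpinb6c (chr13:33905142-33905441, minus strand) are printed as examples of the Serpinb6 paralogues lower in 1SA. Serpinb6d was lower in 1SA too and is not printed. Capitals mark matches, on either strand, to CATTCC (TEAD, the DNA-binding partner of YAP), TGANTCA (AP-1), GTTAAT (a part of the HNF1 motif), TTCNNNGAA (STAT) or the core promoter letters TATAAA.
Serpina12: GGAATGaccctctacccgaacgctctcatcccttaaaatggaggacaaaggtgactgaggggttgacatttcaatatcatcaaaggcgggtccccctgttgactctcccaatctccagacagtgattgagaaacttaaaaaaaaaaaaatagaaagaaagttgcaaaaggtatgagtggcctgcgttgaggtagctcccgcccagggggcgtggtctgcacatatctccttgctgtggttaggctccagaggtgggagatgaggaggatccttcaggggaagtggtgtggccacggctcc
Serpina5: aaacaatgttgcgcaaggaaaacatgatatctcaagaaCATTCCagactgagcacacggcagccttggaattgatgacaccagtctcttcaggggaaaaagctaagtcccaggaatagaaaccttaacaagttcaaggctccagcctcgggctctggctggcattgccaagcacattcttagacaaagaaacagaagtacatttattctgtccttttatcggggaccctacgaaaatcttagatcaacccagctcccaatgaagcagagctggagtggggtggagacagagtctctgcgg
Serpinb6a: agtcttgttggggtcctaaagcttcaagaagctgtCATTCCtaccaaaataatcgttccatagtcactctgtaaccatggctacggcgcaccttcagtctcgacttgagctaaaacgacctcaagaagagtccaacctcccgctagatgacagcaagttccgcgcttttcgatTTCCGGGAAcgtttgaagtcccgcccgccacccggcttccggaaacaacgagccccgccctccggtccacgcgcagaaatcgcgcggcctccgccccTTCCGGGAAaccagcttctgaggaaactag
Serpinb6b: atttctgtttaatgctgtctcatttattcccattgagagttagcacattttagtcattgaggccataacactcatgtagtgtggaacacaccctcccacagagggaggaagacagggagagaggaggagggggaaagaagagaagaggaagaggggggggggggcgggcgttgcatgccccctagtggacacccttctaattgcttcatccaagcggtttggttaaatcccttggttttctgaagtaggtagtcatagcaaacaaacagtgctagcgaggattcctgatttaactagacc
Serpinb6c: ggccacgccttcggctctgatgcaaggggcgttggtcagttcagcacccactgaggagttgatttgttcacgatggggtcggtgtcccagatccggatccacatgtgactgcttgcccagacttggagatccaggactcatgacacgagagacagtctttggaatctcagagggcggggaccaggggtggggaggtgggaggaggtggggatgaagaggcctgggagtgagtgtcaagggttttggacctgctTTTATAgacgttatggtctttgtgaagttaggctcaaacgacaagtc

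The TEAD letters stood at bases 250 to 245 before the start of Serpina12, at bases 212 to 207 before that of Serpina5 and at bases 215 to 210 before that of Serpinb6a. Of all 32851 promoters in the reference, 14.7% held them, and of 58 promoters from the 49 serpin genes with an entry, 12 held them (20.7%). AP-1 letters were in 11 of the 58 serpin promoters (19.0%) against 7.81% of all promoters, HNF1 letters in 11 (19.0%) against 7.10%, STAT letters in 10 (17.2%) against 8.30%, and the core promoter letters in 18 (31.0%) against 13.6%. Serpinb6b held none of the 5 motifs in this window, and neither did the second start of Serpinb6a, which is not printed. These matches are descriptions of letters and not of binding sites. Copied promoters were counted more than once in these shares. Serpina1a, Serpina1c and Serpina1d, whose promoters were 85.2% to 91.2% identical, each held both AP-1 and HNF1 letters. Within the alpha-1-antitrypsin genes the promoters of Serpina1a and Serpina1c were 91.2% identical over an end-to-end alignment, while Serpina1f shared 43.9% with Serpina1a. The Serpinb6a and Serpinb6b promoters shared 45.4%, which is the higher value over both starts of Serpinb6a. The files hold no sequence of the array features, so how far the paralogues of a group share signal was not tested, and values within the Serpina1, Serpina3 and Serpinb6 groups are uncertain in that respect.

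**Figure D1:**
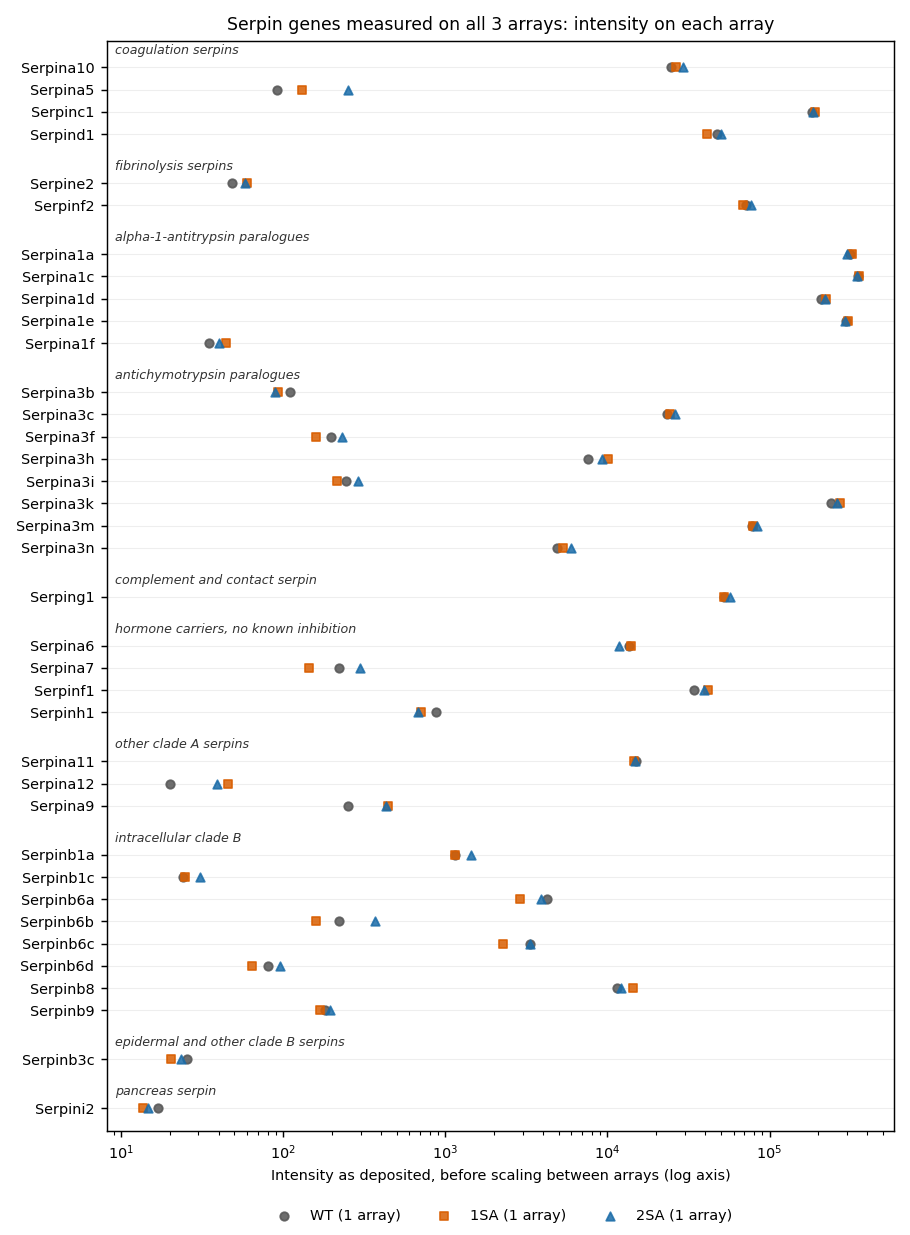
Intensity of the serpin genes measured on all 3 arrays (1 of the 38 is not shown), on a log axis and before scaling between arrays, with circles for WT, squares for 1SA and triangles for 2SA (1 array each). Rows are grouped by role and should be read within a row only. Most secreted liver serpins have 3 symbols that nearly coincide, whereas Serpina12, Serpina9, Serpina5 and Serpina7 are spread.

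Intensities are given below as deposited, and differences are differences of log2 intensity once the arrays had been brought to a common 75th percentile, which was 290.8 (WT), 275.7 (1SA) and 319.5 (2SA). For this reason equal intensities on WT and 1SA give a small positive difference. The error beside a difference is 1 SD of a difference between arrays from repeated spots of equally bright features, and it leaves out all spread between livers. Clade A, the secreted serpins, had 20 of 22 genes measured, and clade B had 9 of 27. Clades C, D, G and H had their only member measured, clades E and F both of theirs, and clade I 1 of 2. The 8 hepatocyte marker genes were measured on every array, and 5 of 8 pancreatic acinar markers were too, but Cpa1, Pnlip and Prss2 were not. In whole liver, fewer cells of a type and less RNA per cell cannot be told apart.

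At least 2-fold differences were few among the serpins measured on all 3 arrays, and Serpinb10, measured on 2SA only, is given as a bound below. In 1SA against WT, 1 of 38 serpins was at least 2-fold higher (Serpina12) and 0 were lower, where 0.727% of all genes were higher and 1.14% lower. In 2SA against WT, 1 was higher (Serpina5) and 0 were lower, against 1.12% and 0.543% of all genes. Between the mutants, 0 of the 38 were at least 2-fold apart in either direction, against 2.47% of all genes that were higher in 2SA and 1.12% that were higher in 1SA. Both comparisons with WT share the WT array. Serpinb6b lay just short of the threshold (1.99-fold higher in 2SA than in 1SA).

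Most serpins lay close to 0 and the clades were placed differently. In 1SA against WT, 24 of 38 serpins were above 0, where 49.7% of all genes were, with a median of 0.10 against 0.00 for all genes. In 2SA against WT, 17 of 38 were above 0 against 43.6% of all genes, with medians of -0.01 and -0.03. In 2SA against 1SA, 14 of 38 were above 0 against 45.6%, with medians of -0.10 and -0.03. Clade A had medians of 0.14, 0.05 and -0.23 in these comparisons and clade B -0.25, -0.02 and 0.11. Quantile normalisation changed these counts to 19, 25 and 20 of 38, so the side of 0 on which the serpins lie as a group depended on the scaling. Bright genes shifted with the scaling. Over all 1160 genes with a WT intensity above 10000 the medians were 0.07, -0.06 and -0.12, and for the 16 serpins among them they were 0.13, -0.04 and -0.23, while quantile normalisation brought the medians of the bright genes to -0.02, -0.01 and 0.01.

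**Figure D2:**
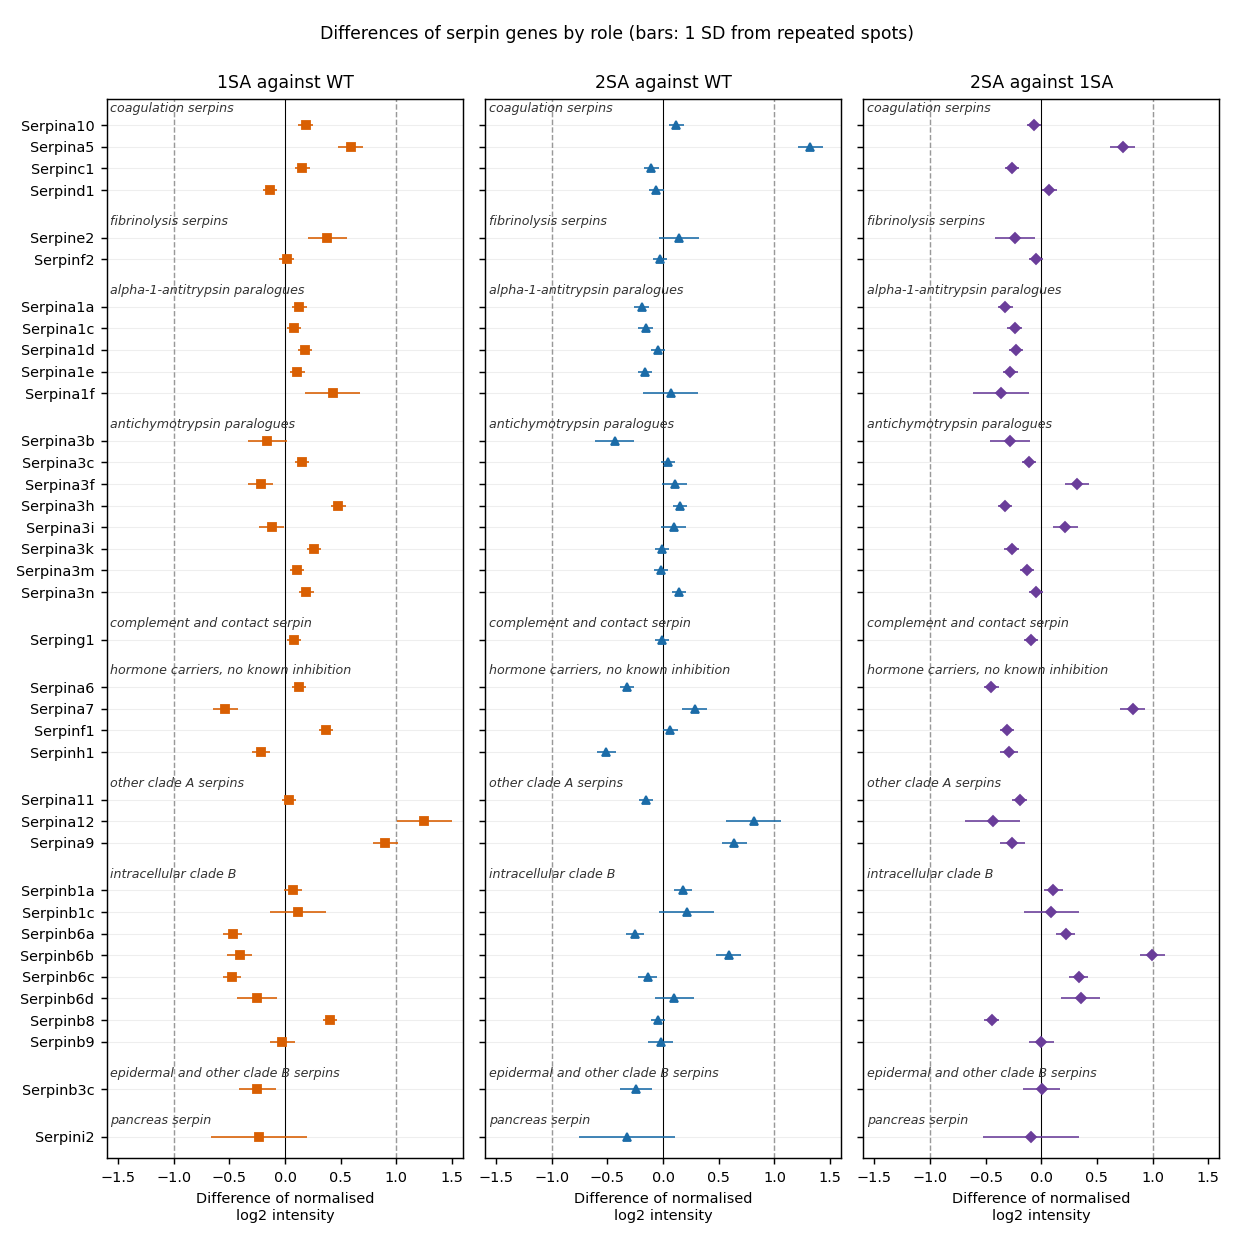
Difference of normalised log2 intensity of serpin genes by role (1 of the 38 is not shown), in 1SA against WT (left), 2SA against WT (middle) and 2SA against 1SA (right). Bars are 1 SD from repeated spots and dashed lines mark 2-fold. Serpina12 lies beyond the line in 1SA (1.25) and Serpina5 in 2SA (1.32), and the alpha-1-antitrypsin genes of high intensity differ by at most 0.32 in size.

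Among the coagulation serpins, the bright plasma inhibitors differed little and Serpina5 stood apart. Serpinc1 (antithrombin, the main inhibitor of thrombin and factor Xa) had intensities of 181646 (WT), 191913 (1SA) and 185383 (2SA). Its differences from WT were 0.16 and -0.11 (± 0.06), and the latter became 0.01 under quantile normalisation. Serpind1 (heparin cofactor II, a thrombin inhibitor) had 47367, 40923 and 49877, and differed from WT by -0.13 and -0.06. Each of these differences was under 0.20 in size.

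Serpina10 (protein Z-dependent inhibitor of factor Xa) had intensities of 24688, 26622 and 29442 and differed from WT by 0.19 and 0.12 (± 0.06). Its dimmer feature gave 0.13 and 0.28. Serpina5 (protein C inhibitor, NM_172953), which inhibits activated protein C and is made mainly in the reproductive tract of the mouse, had an intensity of 91.1 (WT), 129.9 (1SA) and 250.1 (2SA). It was lowest on WT and highest on 2SA, with differences from WT of 0.59 in 1SA and 1.32 in 2SA, and of 0.73 between the mutants (± 0.11). Its 2SA difference was 0.95 after normexp background correction, short of 2-fold. The 10 coagulation and contact proteases fixed as partners of these serpins were all measured, and none was 2-fold apart. In 1SA 10 of 10 were above 0 (median 0.09), and in 2SA 1 of 10 was (median -0.06). Bright genes leaned the same way, with 802 and 355 of the 1160 genes with a WT intensity above 10000 above 0, against 49.7% and 43.6% of all genes. The brightest of these proteases, prothrombin (F2), had intensities of 105371, 109112 and 107687 and factor X (F10) 49913, 53066 and 52557.

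Among the fibrinolysis serpins, Serpinf2 (alpha-2-antiplasmin, the plasma inhibitor of plasmin) had 71531, 68523 and 76929 and differences from WT of 0.01 and -0.03 (± 0.06). Serpine2 (protease nexin 1) had 48.2, 59.5 and 58.5, with differences of 0.38 and 0.14 (± 0.18), so its 2SA difference was smaller than the spot error. Serpini1 (neuroserpin) was well above background on 1SA only, with 12.5 (WT), 11.7 (1SA) and 9.34 (2SA). Its scaled value was 1.45-fold higher on 1SA than on 2SA and not higher than on WT, where the spot error below an intensity of 20 is 0.43. Serpinb2 was measured on no array.

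Among the genes of the plasminogen system, the urokinase pair differed more than plasminogen itself. Plau (urokinase) had an intensity of 34.2 (WT), 25.9 (1SA) and 89.0 (2SA), with differences from WT of -0.33 and 1.24 (± 0.25) and a difference of 1.57 between the mutants. Its receptor Plaur had 197.2, 124.8 and 335.4, with -0.58, 0.63 and 1.21 (± 0.11). For both Plau and Plaur the lowest array was 1SA. Plat (tissue plasminogen activator) differed from WT by -0.46 and -0.25, whereas plasminogen (Plg, 63281, 66275 and 67151) differed by 0.14 and -0.05 and vitronectin (Vtn) by 0.12 and 0.01. Marker genes of bile duct cells were lower in 1SA too, with 5 of 6 below WT (summed intensity 3839 (WT), 1204 (1SA) and 3472 (2SA)), and 4 of 4 measured platelet markers were below WT (summed 1008, 712.6 and 1996, with Itga2b and Gp9 not measured). Of the 6 measured monocyte and macrophage markers, 5 were lower in 1SA than in WT (summed 8952, 5527 and 9483). Spp1 (3536, 1009 and 3132) made up most of the bile duct sum and is also in the monocyte and macrophage list. Of the other bile duct markers, Krt7, Epcam and Cftr were dim, at most 35.7 on any array. The part of these cells in the Plau and Plaur values was not tested.

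The alpha-1-antitrypsin paralogues, which encode the main plasma inhibitors of neutrophil elastase, were at high intensity and nearly level. Serpina1a had intensities of 313435 (WT), 324932 (1SA) and 300923 (2SA), and Serpina1c had 353467, 354501 and 348050. Serpina1d had 206411, 221676 and 219819, and Serpina1e 297056, 304291 and 291016. Their differences lay between 0.08 and 0.18 in 1SA against WT, between -0.19 and -0.04 in 2SA against WT and between -0.32 and -0.22 in 2SA against 1SA (± 0.06). Under quantile normalisation Serpina1c, Serpina1d and Serpina1e were above WT in 2SA (0.07, 0.06 and 0.01), while Serpina1a stayed below (-0.04). The differences in 2SA against 1SA were then -0.08 (Serpina1a), 0.07 (Serpina1c), -0.02 (Serpina1d) and 0.01 (Serpina1e). In 1SA against WT they were 0.05, 0, 0.08 and 0 in the same order, so these differences depended on the scaling. The second features of Serpina1a, Serpina1d and Serpina1e differed from the first by at most 0.15 in every comparison. Serpina1f, a member expressed mainly in epididymis, was at low intensity (34.9, 44.5 and 40.2) and differed by 0.43 and 0.07 (± 0.25). Serpina1b had no feature that could be named.

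The antichymotrypsin paralogues, an expanded rodent group related to the acute phase protein antichymotrypsin, had 8 of 10 genes measured, all within 0.48 of WT. Serpina3k (contrapsin, an abundant product of mouse liver) had 240142, 272336 and 262303 and differences of 0.26 and -0.01 (± 0.06). Serpina3n, the acute phase member, had 4905, 5311 and 5948 and was above WT in both mutants (0.19 and 0.14). Serpina3h, annotated as a transcribed pseudogene, had 7629, 10087 and 9319 and gave the largest difference of the group in 1SA (0.48), with 0.15 in 2SA. Serpina3c (23204, 24446 and 26228) and Serpina3m (77636, 79443 and 84238) differed from WT by at most 0.15 in size. The dimmer genes had other signs. Serpina3b had 109.5, 93.0 and 88.8 (-0.16 and -0.44, ± 0.18), Serpina3f 196.5, 160.2 and 231.8 (-0.22 and 0.10, ± 0.11) and Serpina3i 244.9, 213.9 and 287.7 (-0.12 and 0.10, ± 0.11). The dimmer feature of Serpina3f gave -0.22 and 0.30, and that of Serpina3i (36.9, 31.7 and 55.6) gave -0.15 and 0.46. For both genes the features thus differed more in 2SA than in 1SA. Serpina3a and Serpina3j were measured on no array. Beside them, 14 of 16 acute phase genes were above WT in 1SA (median 0.21) and 4 of 16 in 2SA (median -0.05), and none was 2-fold apart. Of the 1160 genes with a WT intensity above 10000, 802 and 355 were above WT (medians 0.07 and -0.06), and of all genes 49.7% and 43.6%. The brightest acute phase genes were haptoglobin (Hp, 260157, 252152 and 266852) and hemopexin (Hpx, 224834, 212437 and 230994).

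Serping1 (C1 inhibitor, which controls complement C1, plasma kallikrein and factor XIIa) had 52102, 52208 and 56774. It differed from WT by 0.08 and -0.01 (± 0.06), and its second feature by 0.04 and -0.04. Of 5 measured complement proteases none was 2-fold apart, with medians of 0.06 and 0.02. The brightest were C1s1 (21365, 19454 and 23306) and C1ra (15051, 14841 and 18284).

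The hormone carriers and other members without known protease inhibition went different ways. Serpina7 (thyroxine-binding globulin, NM_177920, a carrier of thyroid hormone) had an intensity of 221.2 (WT), 144.6 (1SA) and 296.0 (2SA). Its mutants lay on opposite sides of WT, at -0.54 and 0.28, and 0.82 apart (± 0.11). Normexp correction reduced these to -0.37 and 0.12, and the gap to 0.49. Serpina6 (corticosteroid-binding globulin) had 13515, 13970 and 11871, with 0.12 and -0.32 (± 0.06). Its dimmer feature gave 0.03 and -0.72, so both features were low on 2SA but by different amounts. Serpinf1 (pigment epithelium-derived factor, an inhibitor of angiogenesis) had 34185, 41900 and 39286 and was higher than WT in 1SA (0.37) and near WT in 2SA (0.07).

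Serpinh1 (Hsp47, the chaperone of procollagen) had an intensity of 874.0 (WT), 712.8 (1SA) and 674.5 (2SA). It was lower than WT in both mutants, by -0.22 and -0.51 (± 0.08). The stellate cell and fibroblast markers, collagen genes among them, were lower too, with 5 of 7 below WT in 1SA (median -0.09) and 7 of 7 in 2SA (median -0.57). Their summed intensity was 12424 (WT), 10763 (1SA) and 9371 (2SA), Reln was not measured, and the part of these cells in the Serpinh1 values was not tested. Serpinb5 (maspin) was measured on no array.

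Among the serpins measured on all 3 arrays, the largest positive differences from WT came from genes that are neighbours. Serpina12 (vaspin, NM_026535, an adipose tissue and liver serpin that inhibits kallikrein 7) had an intensity of 20.2 (WT), 45.5 (1SA) and 38.9 (2SA), with differences of 1.25 and 0.81 (± 0.25). The WT array was the low one, close to the lowest intensity called measured there (12.5), and normexp correction reduced the differences to 0.49 and 0.25. Serpina9 (centerin, NM_027997, known from germinal centre B cells) had 251.1, 444.1 and 429.4, with 0.90 and 0.64 (± 0.11). It too was lowest on WT, and both mutants lay close together (-0.26 between them). Serpina11, next to Serpina9, had 14930, 14531 and 14720 and differed by 0.04 and -0.16.

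In the order of the gene table, Serpina9, Serpina12 and Serpina5 follow each other on chromosome 12, with Gm31271, a long noncoding RNA without a feature, and Serpina4-ps1, a transcribed pseudogene, between Serpina12 and Serpina5. All 3 serpin genes were above WT in both mutants under every alternative processing that kept them, by 0.41 to 1.29 in 1SA and by 0.25 to 1.35 in 2SA. Serpina4-ps1 (NR_002861), whose symbol does not have the form that chose the members and which was looked up after the values of its neighbours were seen, had intensities of 2554 (WT), 9231 (1SA) and 1770 (2SA). Its differences from WT were 1.93 and -0.66, and the sign in 2SA was opposite to that of Serpina5, its neighbour. The nearest measured serpins on either side of this stretch, Serpina11 and Serpina3b, were not above WT in 2SA (-0.16 and -0.44).

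**Figure D3:**
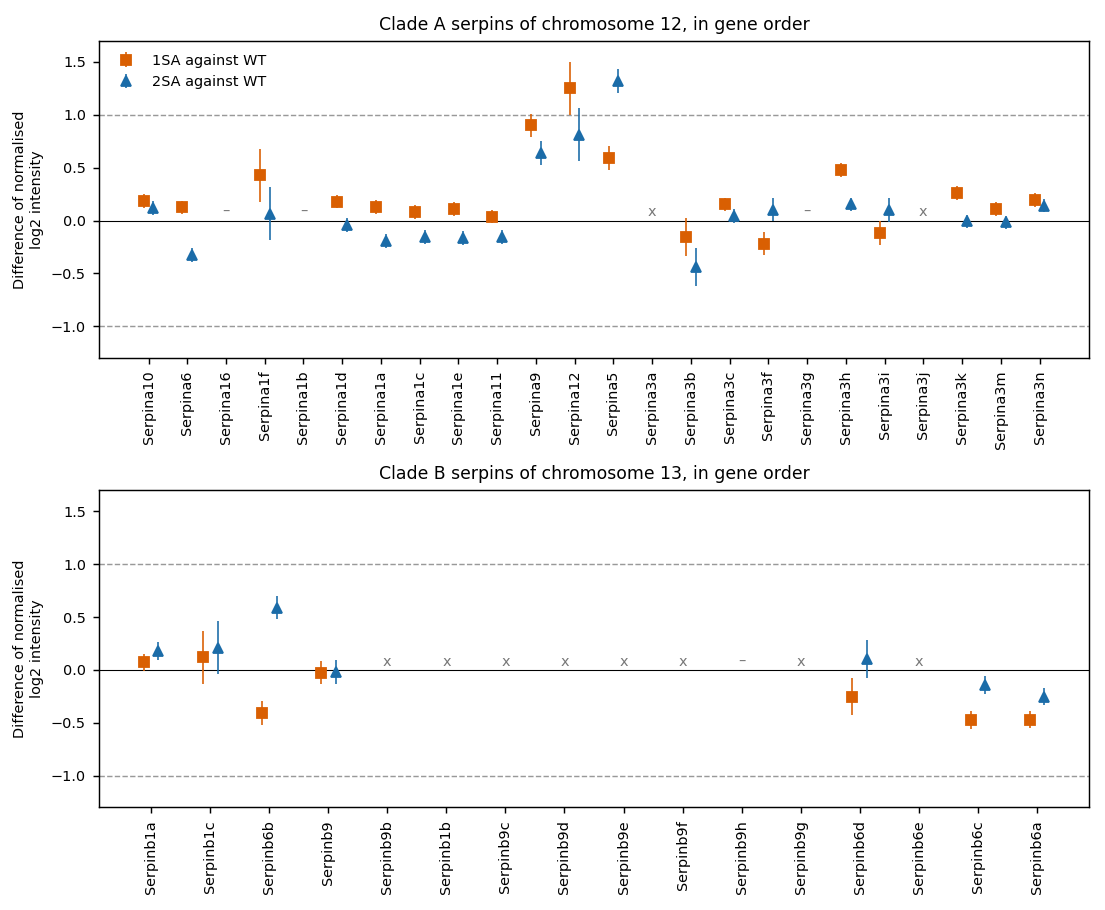
Difference from WT of clade A serpins on chromosome 12 and clade B serpins on chromosome 13, in gene order, with squares for 1SA, triangles for 2SA and bars of 1 SD from repeated spots. An x marks a gene not measured on all 3 arrays and a dash one without a named feature. Serpina9, Serpina12 and Serpina5 stand above the rest of the upper row (0.59 to 1.32), and the Serpinb6 genes of the lower row lie below 0 in 1SA.

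Among clade B serpins, which act inside cells, the Serpinb6 paralogues were lower in 1SA than in WT and in 2SA. These genes encode inhibitors of cathepsin G and related proteases. Serpinb6a (NM_001164118) had an intensity of 4236 (WT), 2900 (1SA) and 3910 (2SA), with differences from WT of -0.47 and -0.25 (± 0.08). Serpinb6c (NM_148942) had 3331, 2272 and 3322, with -0.47 and -0.14, and its second feature gave -0.45 and -0.22. For both genes 1SA was the low array, and WT and 2SA were closer to each other.

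Serpinb6b (NM_011454), which lies apart from the other Serpinb6 genes in gene order, had 221.5 (WT), 158.4 (1SA) and 366.0 (2SA). The mutants fell on opposite sides of WT, at -0.41 and 0.59 (± 0.11). Serpinb6d had 81.0, 64.5 and 95.5, with -0.25 and 0.10 (± 0.18). Serpinb6e was well above background on WT (24.0) and 2SA (26.1) and not on 1SA (12.5). The ratio of the scaled values put 1SA 1.82-fold below WT and 1.80-fold below 2SA, where the spot error below an intensity of 20 is 0.43. All 4 genes measured on every array kept their sign in 1SA against WT and in 2SA against 1SA under every alternative processing.

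The proteases of granules and lysosomes that clade B serpins meet were measured in all 9 cases. In 1SA 5 were below WT and 4 above (median -0.06). Gzmb (granzyme B, the target of Serpinb9) had an intensity of 86.5 (WT), 30.7 (1SA) and 150.6 (2SA), with differences from WT of -1.42 and 0.66. Gzma (granzyme A, a target of Serpinb6b) had 908.3, 385.1 and 1497, with -1.16 and 0.59. Ctss (cathepsin S) had 10706, 5868 and 12909, with -0.79 and 0.13. Of those above WT in 1SA, Prtn3 (proteinase 3) differed most, with 26.6, 54.1 and 26.7 and a difference of 1.098 in 1SA and -0.13 in 2SA (± 0.25). Elane (neutrophil elastase) had 2118, 2391 and 2042, with 0.25 and -0.19 (± 0.08), and Ctsg and Ctsk differed from WT by 0.16 and 0.14 in 1SA. The brightest genes of the list, Ctsl (66797, 60644 and 72435) and Ctsb (52864, 43599 and 56568), differed from WT by at most 0.20 in size. Of the immune markers, those of T and NK cells had 3 of 5 below WT in 1SA (median -0.09, summed intensity 2902, 2710 and 3113, with Cd8a and Klrb1c not measured), those of Kupffer cells 5 of 7 (median -0.36, summed 59514, 40748 and 32687) and those of neutrophils 2 of 4 (median 0.08, with Mpo, Ngp, Ltf and Cxcr2 not measured). Those of monocytes and macrophages had 5 of 6 below WT in 1SA (median -0.91) and 5 of 6 higher in 2SA than in 1SA (median 1.18), and the bile duct and platelet markers given above were low in 1SA too. In 2SA 7 of 7 Kupffer cell markers were below WT (median -0.90). The part of any of these cells in the Serpinb6 values was not tested.

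The other clade B genes did not share this pattern. Serpinb8, an inhibitor of furin-like proteases, had 11402, 14291 and 12147, with 0.40 and -0.04 (± 0.06), so that 1SA was its high array. Serpinb1a (leukocyte elastase inhibitor) had 1153, 1149 and 1435, with 0.07 and 0.18 (± 0.08), and Serpinb1c 24.0, 24.7 and 30.5, with 0.12 and 0.21 (± 0.25). Serpinb9 (the granzyme B inhibitor) had 180.9, 168.6 and 195.6, with -0.02 in both mutants (± 0.11), beside the differences of Gzmb given above.

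Most other clade B genes were not well above background on any array. Of the 18 serpins measured on no array, 16 were of clade B, and the intensities of the 18 were at most 8.83 (WT), 7.44 (1SA) and 8.87 (2SA). They included Serpinb1b and the Serpinb9 copies from Serpinb9b to Serpinb9g, besides genes such as Serpinb3a, Serpinb7, Serpinb12 and Serpinb13 that are known from epidermis and other squamous epithelia. Of 6 squamous epithelium markers 3 were not measured (Krt14, Krt1 and Dsg3). Serpinb10 (bomapin, known from myeloid cells) was well above background on 2SA only, with 7.43 (WT), 2.16 (1SA) and 47.7 (2SA). Set against the lowest intensity called measured on WT (12.5) and on 1SA (10.3), its scaled 2SA value was 3.47-fold and 4.01-fold higher. These bounds rest on 1 spot and leave out the spot error, which is 0.43 below an intensity of 20.

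Serpinb3c, a squamous cell carcinoma antigen gene, was the member with repeat measurements, from 10 spots on each array. The spots ranged from 17.8 to 34.3 on WT (median 25.2), from 14.3 to 31.9 on 1SA (median 19.1) and from 14.6 to 32.1 on 2SA (median 24.7). All 3 ranges overlapped. The SD of log2 intensity over the spots was 0.32 (WT), 0.41 (1SA) and 0.33 (2SA). The median SD over repeated probes at intensities of 20 to 50 was 0.18, so the error given for dim serpins with 1 spot may be too small. Relative to WT, the 1SA mean differed by -0.25 ± 0.17 and the 2SA mean by -0.25 ± 0.15, where the error is the SD of a difference between means of 10 spots. Serpini2 (pancpin, a pancreas serpin) was dim, with 16.8, 13.6 and 14.8, and its differences of -0.23 and -0.33 were within the spot error of 0.43.

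**Figure D4:**
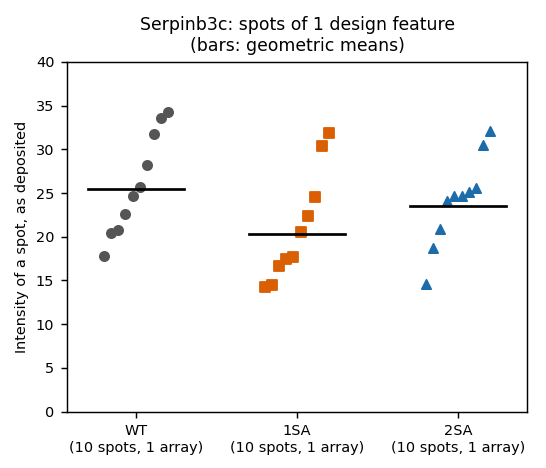
Intensity as deposited of the 10 spots of the Serpinb3c feature on each array, with bars at the geometric means (25.4 (WT), 20.3 (1SA) and 23.5 (2SA)). The spots of all 3 arrays overlap, and on each array they vary more than those of the median repeated probe at like intensity.

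Receptors that clear serpin complexes were compared last. Lrp1, the main hepatic receptor for such complexes, had intensities of 4116, 4089 and 4584 and differed from WT by 0.07 and 0.02 (± 0.08). Vldlr had 145.9, 81.9 and 87.8, and was lower than WT in both mutants, at -0.76 and -0.87 (± 0.11). Sort1 had 235.3, 246.8 and 250.6, with 0.15 and -0.04, and Lrp8 was not measured. None of these was 2-fold apart in any comparison.

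**Figure D5:**
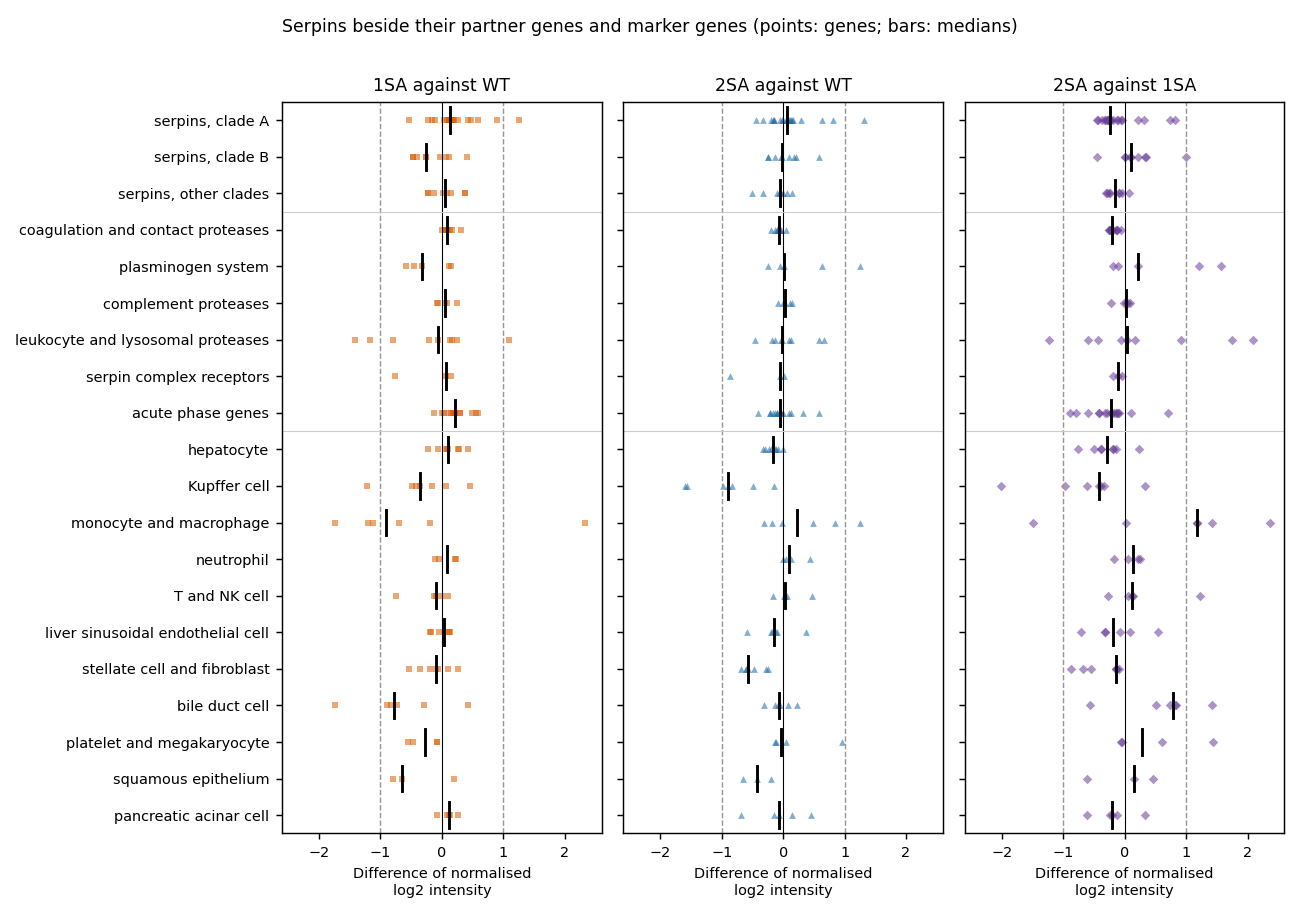
Differences of normalised log2 intensity of serpins (top block, 1 of the 38 not shown), partner genes (middle block) and cell type markers (bottom block) in each comparison, with points for genes, thick bars for list medians and dashed lines at 2-fold. Clade A (medians 0.14, 0.05 and -0.23) and the hepatocyte markers (0.09, -0.16 and -0.29) lie on the same side of 0 except in 2SA against WT. The monocyte and macrophage markers have medians of -0.91, 0.23 and 1.18.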

How the data were processed

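Livers of 3 groups, each with 1 one-colour Agilent array, were compared as WT, 1SA and 2SA by their titles. Per the file headers, the authors processed the scans with Agilent Feature Extraction 10.10.1.1, and the design was placed on mouse build mm9. The deposited intensity of a spot is linear, background-subtracted and not scaled between arrays. The series matrix of the authors holds the same intensity times 1 constant per array (3.02, 3.08 and 2.81, origin not given in the sources used here) and served only as an alternative. 0 columns were left unused.

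From the 59305 spots of each array, spots with a non-uniformity or population outlier flag were dropped (181, 148 and 182, none of a serpin), and no spot was saturated. Log2 intensities were set against the 75th percentile of their array and averaged per probe, and a probe counted as measured when at least 50% of its spots were well above background. Of 55681 probes, 26762 were named through their RefSeq accession in a GRCm38.p6 gene table, used for names and gene order only. Where a gene had several probes on all 3 arrays, the brightest stood for it. Serpins covered 74 probes, 48 of them measured on all arrays. Of 64 serpin symbols in the table, Serpina1b, Serpina3g, Serpina16, Serpinb9h and Serpine3 had no feature and were not analysed here. A serpin measured on some arrays gave a bound, the bright value over either the dim value or the least signal called measured on that dim array, whichever was larger, each scaled as above. For Serpinb6e and Serpini1 the dim value was the larger, so theirs are plain ratios and not bounds.

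The spot error came from 399 probes with 10 spots, as the median SD at like intensity times the square root of 2. Members were called at 2-fold, with no test. Named with values were every serpin well above background on at least 1 array (with 1 exception, below), and of partner lists the genes at least 2-fold apart and otherwise the brightest 2, with Plat, Ctss, Vldlr and Serpina4-ps1 added after their values were seen. The members, lists and alternatives were chosen with earlier results of these data known. Promoters were aligned end to end with Biopython 1.88, with matches at 1, mismatches at -1 and gaps penalised. The promoters of Serpina6, Serpina9, Serpina10, Serping1, Serpina3h, Serpina3k and Serpina3m were not used here. Alternatives were quantile normalisation, the array median, normexp with an offset of 50 (limma 3.58.1, R 4.3.3), a 1.5-fold threshold, the series matrix values, a mean over the measured probes of a gene, a stricter filter on dim probes, and none. Python 3.11.15, pandas 2.3.3, numpy 2.4.6 and matplotlib 3.10.9 were used, and the calling steps were tested on simulated data. The values of 1 measured serpin are not reported here, but it is included in the counts and medians. Precision is limited by the number of arrays.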

Additional observations from a re-analysis of the deposited data

Results flagged for a closer look

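In Serpina7 and Serpinb6b the mutants lay on opposite sides of WT and the gap between them was large against the spot error. Other serpins had this arrangement with a smaller gap. Among them were Serpina6 (0.12 and -0.32, with 2SA -0.45 from 1SA) and Serpinb8 (0.40 and -0.04, also -0.45), each with a spot error of 0.06. Serpina7 was -0.54 from WT in 1SA and 0.28 in 2SA, which put 2SA 0.82 above 1SA. After normexp correction, which adds an offset of 50 to each intensity, these were -0.37, 0.12 and 0.49. Such an offset makes log2 differences of dim genes smaller. The spot error of 0.11 came from values without it and cannot be set beside them. Serpinb6b was -0.41 from WT in 1SA and 0.59 in 2SA, with a gap of 1.00. With 1 array per group the difference was not tested in any of these genes.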

How the results depend on the processing

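No alternative turned the direction of a serpin that was at least 2-fold apart. Of 753 values of single serpins under alternatives, 664 moved by less than the spot error of the gene and 89 by more, and 47 had another sign than reported, all of them in genes under 2-fold. Many of the 664 could hardly move. The filter settings left the value of a kept gene as it was, and the mean over probes changed only genes with several probes. The array median shifted all genes alike, by at most 0.035. The 664 is therefore not a measure of robustness. The count at least 2-fold higher in 1SA against WT (1) became 0 under normexp and under the stricter filter and 3 at 1.5-fold. The count lower there (0) became 1 with the series matrix values, 4 with no filter on dim probes and 1 at 1.5-fold. The count higher in 2SA against WT (1) became 0 under normexp and the stricter filter, 3 without it and 4 at 1.5-fold, and the count lower there (0) became 2 with no filter. In 2SA against 1SA the count higher (0) became 1 with the series matrix values, 2 with no filter and 4 at 1.5-fold, and the count lower (0) became 1 with no filter. The median of all serpins in 1SA against WT (0.10) became -0.024 with no filter, and that in 2SA against 1SA (-0.10) became 0.0081 under quantile normalisation, -0.24 with no filter and -0.22 under the stricter one. The clade A median in 2SA against 1SA (-0.23) became -0.0048 under quantile normalisation. The clade B median became -0.0062 under normexp in 1SA against WT, and with no filter -0.25 in 2SA against WT and -0.25 in 2SA against 1SA. Without the filter 59 serpins entered and with the stricter filter 23, and Serpina12 and Serpina5 fell below the latter. The causes of the other shifts were not tested. The share of all genes above 0 in 2SA against 1SA, 45.6%, was 57.4% with the series matrix values. No paired analysis was possible because there was no second array in any group. The slide was not fitted as a block because 1 slide carried all 3 arrays. Serpins with 1 spot and an intensity below about 50 carry a spot error of 0.25 or more, so differences of that size were not detectable there.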

Other observations

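Angiotensinogen (Agt), a serpin by fold whose older symbol is Serpina8 and which the symbol rule did not take in, had intensities of 7387 (WT), 6477 (1SA) and 7335 (2SA). The differences from WT were -0.11 and -0.15 in the mutants, in the order 1SA and 2SA, with a spot error of 0.06. Of markers outside the comparisons above, those of liver sinusoidal endothelial cells were all measured, with medians of 0.03 in 1SA against WT and -0.15 in 2SA against WT. In the monocyte and macrophage list, Ccr2 went against the others, with 140.9 (WT), 673.7 (1SA) and 279.0 (2SA).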
